A study of Mus musculus with 2 samples.

Results

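The genes described here encode 9 non-collagen proteins that chondrocytes make for, or hold at, the border with the cartilage matrix: Cilp, Cilp2, Prg4, Chad, Ucma, Snorc, Cytl1, Mia and Cnmd. They were chosen by name, as proteins restricted to particular zones of cartilage, and every probe set that the platform annotation ties to only that gene was taken. This gave 10 probe sets of 45037 on the array, and 9 genes of 18193 measured. Ucma has 2 probe sets and each of the other 8 genes has 1.

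Transcripts were measured on an Affymetrix array of the mouse genome in chondrocytes freed by collagenase from the ribs of mice 5 days old. The 2 samples were a V156D mutant, which carries a knock-in of that substitution in Matn1, and a wild type; the sources used here give no strain, no sex and no statement on whether both alleles were mutant. The protein, matrilin-1, forms oligomers that join other components of cartilage. Per the series' design text, cells of 5 littermates were pooled before the RNA was extracted, and each genotype is 1 array; whether 5 animals were pooled for each genotype is not clear from that text. There are therefore no replicates, no error between animals and no test for any value below, and every difference is one between these 2 arrays. Signals are intensities on a linear scale, and ratios are log2 of mutant over wild type. Because each probe set has its own brightness, intensities are compared between arrays and not between genes.

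Cartilage is built in layers whose cells secrete different sets of proteins around a shared frame of collagen II and aggrecan. At the joint face, cells make the lubricant of the surface, and below them lies an intermediate zone in which the cartilage intermediate layer proteins are laid down. In growing cartilage, such as that of a young rib, resting and dividing chondrocytes release small proteins that act on adhesion, on calcification or on the entry of vessels, and production of many of them falls as the cells enlarge. Of the genes here, 2 are not simple secreted proteins: Snorc encodes a proteoglycan that spans the membrane, and Cnmd encodes a membrane precursor from which the active part is cut and released.

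The cells carried the transcripts that define chondrocytes in both arrays. The 6 chondrocyte markers Col2a1, Acan, Matn1, Comp, Hapln1 and Sox9 had intensities of 2555 to 29057 in the mutant and of 3134 to 27997 in wild type. Their ratios ran from -0.29 for Sox9 to 0.06 for Acan. Sox9 was -0.49 with its other probe set at or above the floor, and the 4 probe sets of Hapln1 lay between -0.19 and 0.05. Matn1 itself had 4340 in the mutant and 4373 in wild type. The median intensity of all probe sets was 55.1 in the mutant and 54.3 in wild type. A signal floor was set at 54.6, the median of the mean log2 signal turned back to an intensity. It was reached by 11329 genes, among them all 9 described here. In both arrays each of the 9 was above the floor, so none of them passed through 1 array alone.

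The promoters of 3 genes are shown because these genes had the highest ratios, Cilp and its paralogue Cilp2, and the lowest, Ucma. They are the 250 bases before the annotated start in RefSeq's GRCm38.p6, read 5′ to 3′ on the strand of the gene. That of Cilp lies at chr9:65264930-65265179 on the plus strand, that of Cilp2 at chr8:69887393-69887642 on the minus strand and that of Ucma at chr2:4975872-4976121 on the plus strand. Capitals mark matches on either strand to TATANA, a loose form of the TATA box.
Cilp: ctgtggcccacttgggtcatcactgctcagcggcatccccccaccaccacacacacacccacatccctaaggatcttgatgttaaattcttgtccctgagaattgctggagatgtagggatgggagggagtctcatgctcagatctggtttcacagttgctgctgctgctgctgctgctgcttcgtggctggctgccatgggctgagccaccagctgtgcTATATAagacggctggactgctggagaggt
Cilp2: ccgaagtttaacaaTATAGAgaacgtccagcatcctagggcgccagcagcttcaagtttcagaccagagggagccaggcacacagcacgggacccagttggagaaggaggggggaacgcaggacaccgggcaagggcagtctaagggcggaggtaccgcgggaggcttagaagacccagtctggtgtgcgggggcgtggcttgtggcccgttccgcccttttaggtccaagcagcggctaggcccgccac
Ucma: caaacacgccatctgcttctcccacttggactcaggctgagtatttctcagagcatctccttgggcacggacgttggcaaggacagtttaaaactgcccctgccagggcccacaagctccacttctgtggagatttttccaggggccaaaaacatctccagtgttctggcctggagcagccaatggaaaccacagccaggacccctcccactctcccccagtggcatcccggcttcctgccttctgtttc
In Cilp the match TATATA, which reads the same on both strands, began 30 bases before the start. In Cilp2 the match began 236 bases before the start, and the window of Ucma held none. RefSeq windows were matched for 7 of the 9 genes, Snorc and Prg4 being the others. Of these 7, 3 held TATANA, the third being Chad with a match 28 bases before its start. Among 32851 promoter windows of the same length, 22.6% held it. A second pattern, ACAANG, which is a loose form of the site bound by SOX factors, was in none of the 7 windows and in 36.3% of all windows. The paralogues differed in base composition. The Cilp2 window held 15 CG pairs, more than 72.7% of all windows, and the Cilp window held 3, more than 29.0%. These are matches of letters, and nothing in the arrays measures binding at them.

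The 9 genes separated into Cilp, which was far higher in the mutant array, Cilp2, which was moderately higher, and 7 genes with small differences. Relative to wild type, 7 genes had ratios above 0 and 2, Ucma and Mia, below 0. Across all genes at or above the floor, 44.8% were above 0. Only Cilp differed at least 1.5-fold, 1 of 9, where the same difference was reached by 3.72% of all genes at or above the floor, upwards by 1.70% and downwards by 2.02%. The median ratio of the 9 genes was 0.07, against -0.02 over all genes at or above the floor. Without Cilp the median was also 0.07. Ratios of absolute size under 0.2 were found in 6 of the 9 genes and in 67.5% of all genes at or above the floor.

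**Figure D1:**
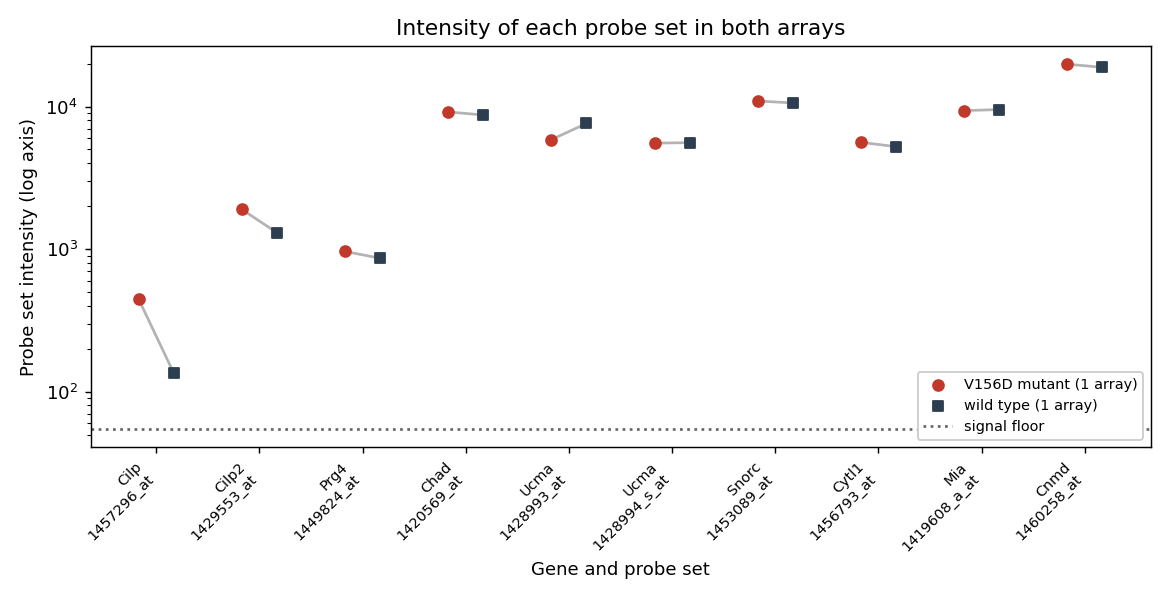
Probe set intensity, on a log axis, in the V156D mutant array (circles) and the wild-type array (squares), joined by a line for each of the 10 probe sets of the 9 genes; the dotted line is the signal floor at 54.6. The line of Cilp is the steepest, at 444 in the mutant and 135 in wild type, and those of Chad, Snorc, Mia and Cnmd are almost flat.

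Cilp encodes cartilage intermediate layer protein, a large secreted glycoprotein that is cut into an N-terminal and a C-terminal part. It is also made outside cartilage, in tendon, meniscus and heart, and its N-terminal part is known to bind TGF-beta1 and to dampen its signal. The probe set 1457296_at had an intensity of 444 in the mutant and 135 in wild type, a ratio of 1.72 or 3.29-fold. Of all 11329 genes at or above the floor, 11 had a higher ratio. The SD of the ratios was 0.27 over the decile of all probe sets, ranked by signal, in which this probe set falls. A single probe set reports Cilp, so its ratio could not be set against another one of the same gene. A 2-fold higher signal in the mutant was found in 0.653% of all genes at or above the floor, and a 3-fold higher signal in 0.141%. Of the 8 other settings tried for single genes, 5 could move the difference in Cilp, and it then lay between 2.85-fold and 3.39-fold. The other 3 only choose among or average probe sets. The lowest value came from adding an offset of 32 to every intensity.

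Cilp2 encodes the paralogue of Cilp, with the same overall build, and is likewise a matrix protein of cartilage. Its intensity was 1897 in the mutant and 1304 in wild type, a ratio of 0.54 or 1.46-fold, which falls short of 1.5-fold. Under quantile normalization and under the loess correction of the ratio for signal it passed 1.5-fold. Of all genes at or above the floor, 230 had a higher ratio, and 0.54 lies outside the central 95% of all ratios, -0.55 to 0.49. The ratio of Cilp exceeded that of Cilp2 by 1.18 on the log2 scale, so the paralogues differed in the same direction and by unequal amounts. The SD of ratios was 0.24 over the brightest decile of probe sets, which holds Cilp2 and the 7 other genes below.

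Prg4 encodes lubricin, the mucin-like proteoglycan that keeps joint surfaces slippery, which is made by superficial zone chondrocytes and synovial cells. Its intensity was 963 in the mutant and 864 in wild type, a ratio of 0.16, smaller than the SD of ratios at this signal. A list of the superficial zone and joint had 9 genes that reached the floor, 5 with ratios above 0 and 4 below, and a median of 0.05. Of these 3 were at least 1.5-fold higher and none 1.5-fold lower, against 1.70% and 2.02% of all genes at or above the floor. Creb5, a transcription factor gene and 1 of the 3, had 71.4 in the mutant and 44.2 in wild type, so it passed the floor through the mutant array alone. Of the 8 genes above the floor in both arrays, 4 were positive and 2 were at least 1.5-fold higher, with a median of -0.02. Abi3bp, a secreted matrix protein also found in fibrous tissue, had 706 in the mutant and 234 in wild type, a ratio of 1.60 that was 1.27 with its other probe set. Clu, the extracellular chaperone clusterin, had 7037 in the mutant and 10232 in wild type, a ratio of -0.54. The 4 probe sets of Clu at or above the floor lay between -0.54 and -0.235. Gdf5, the growth factor that marks the joint interzone, had 205 in the mutant and 187 in wild type, and it is named here for that role after its value was seen. Joint surface genes thus differed among themselves, and lubricin lay near the middle of them.

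**Figure D2:**
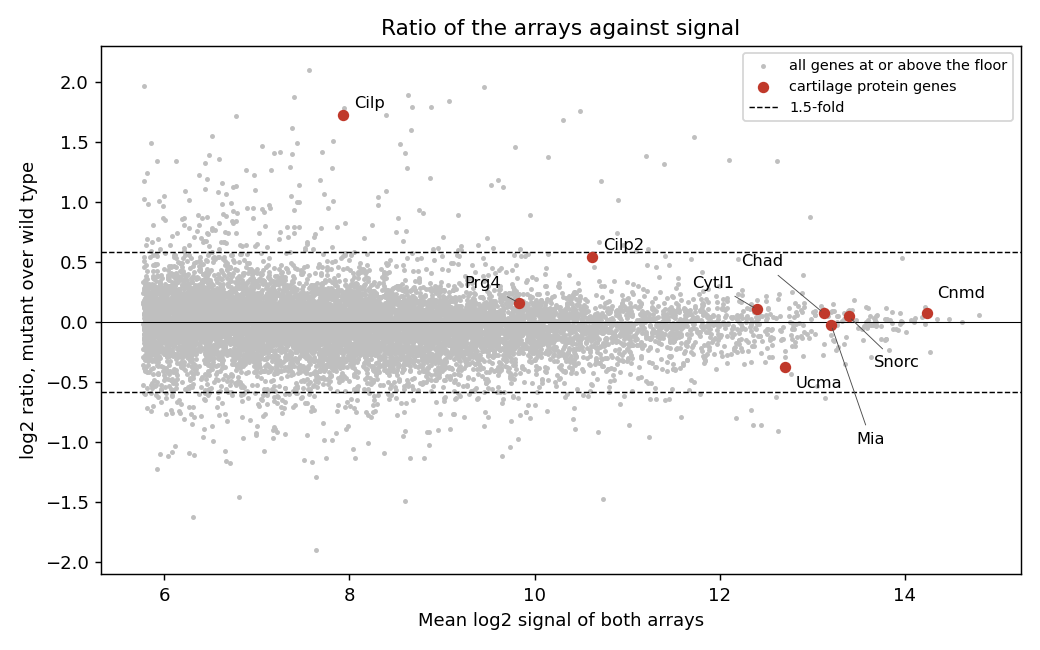
The log2 ratio of mutant over wild type against the mean log2 signal of both arrays for the 11329 genes at or above the floor (grey) and for the 9 cartilage protein genes (red), with 1.5-fold as dashed lines. Cilp lies above almost all genes at 1.72, Cilp2 just under the upper dashed line at 0.54, Ucma at -0.38, and the others close to 0.

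Ucma encodes a small secreted protein rich in gamma-carboxylated glutamate, also called Gla-rich protein, which is made by resting and distal chondrocytes and binds calcium mineral. Its brighter probe set, 1428993_at, had an intensity of 5864 in the mutant and 7611 in wild type, a ratio of -0.38 or 1.30-fold lower in the mutant. Its other probe set, 1428994_s_at, had 5540 in the mutant and 5582 in wild type, a ratio of -0.01. The probe sets thus shared a sign and disagreed in size by 0.37. Among the 4878 genes for which 2 or more probe sets reached the floor, the median disagreement of the brightest pair was 0.14, and 13.1% disagreed by more than Ucma. The size of the difference in Ucma therefore rests on which of its probe sets is read.

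Snorc encodes a chondroitin sulphate proteoglycan in the chondrocyte membrane. Its intensity was 10930 in the mutant and 10603 in wild type, a ratio of 0.04. The sign turned to -0.00 when ratios were centred on the median of the cartilage matrix genes, so no direction is given for it. Cytl1, a small cytokine-like secreted protein made by chondrocytes, had an intensity of 5615 in the mutant and 5231 in wild type, a ratio of 0.10. Both were close to level between the arrays.

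Chad encodes chondroadherin, a leucine-rich repeat protein that binds collagen II and the integrin alpha2beta1 on the chondrocyte. Its intensity was 9161 in the mutant and 8728 in wild type, a ratio of 0.07. Chadl, which encodes a related protein of cartilage and is named here for that relation after its value was seen, had a ratio of 0.09. Mia, also known as cartilage-derived retinoic acid-sensitive protein, is a small secreted protein with a fold like an SH3 domain that binds fibronectin. Its intensity was 9359 in the mutant and 9530 in wild type, a ratio of -0.03 that turned to 0.04 under quantile normalization and to a value above 0 under the loess correction. The transcripts of Chad and Mia were thus nearly level between the arrays.

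Cnmd encodes chondromodulin, whose released part keeps vessels out of cartilage. Its intensity was 19822 in the mutant and 18832 in wild type, a ratio of 0.07 or 1.05-fold. Tnmd, which encodes tenomodulin, the related protein of tendon and a member of the fibrous tissue list, had an intensity of 5744 in the mutant and 1977 in wild type, a ratio of 1.54; it is named for its relation to Cnmd after its value was seen. The ratio of Tnmd exceeded that of Cnmd by 1.46 on the log2 scale, each gene being read by 1 probe set. Markers of endothelium were mostly higher in the mutant while Cnmd was nearly level. Of 8 such markers that reached the floor, 7 were positive in ratio and 4 were 1.5-fold higher or more, with a median of 0.65. Emcn, an endothelial sialomucin and 1 of these 4, had 96.4 in the mutant and 38.2 in wild type and so passed the floor through the mutant array alone. Of the 7 markers above the floor in both arrays, 6 were positive and 3 were 1.5-fold higher or more, with a median of 0.35. Among all genes at or above the floor, 44.8% were positive and 1.70% were 1.5-fold higher or more. The summed intensity over the 12 endothelial markers measured, with those under the floor, was 1399 in the mutant and 950 in wild type. Brighter probe sets weigh more in such a sum. Cdh5, a cadherin of endothelial junctions, was highest at 1.39. It had 144 in the mutant and 55.1 in wild type, barely above the floor of 54.6. Egfl7, a secreted endothelial protein whose probe sets disagreed in sign, was lowest at -0.19. Whether the endothelial signals bear on any gene described here was not tested.

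Against the rest of the cartilage matrix, Cilp and Cilp2 stood above and the other genes lay alongside. The 19 other cartilage matrix genes had ratios from -0.35 for Col9a2, a chain of collagen IX, to 0.30 for Susd5, a sushi domain protein, 12 above 0 and 7 below, with a median of 0.05 and none 1.5-fold different. Within that range lay 6 of the 9 genes, Ucma being just under it and Cilp and Cilp2 over it. Susd5 was 0.00 with its other probe set. Among 10 regulators of chondrocytes at or above the floor, 5 were above and 5 below 0, with a median of 0.02. They ran from -0.29 for Sox9, or -0.49 with its other probe set, to 0.43 for Gli1, a hedgehog target. Among 8 prehypertrophic and hypertrophic genes, 4 were above and 4 below 0, from -0.77 for the collagenase gene Mmp13 to 0.36 for the transcription factor gene Dlx5, with a median of 0.03.

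Markers of fibrous tissue were higher in the array in which Cilp was higher. Of 21 fibroblast, tendon and perichondrium genes, 20 had a positive ratio, and the median was 0.87. Of the 21, 14 were 1.5-fold higher or more, 9 of them past 2-fold. Among all genes at or above the floor, 44.8% had a positive ratio, 1.70% were 1.5-fold higher and 0.653% were 2-fold higher. Scx, a tendon transcription factor gene, had 73.0 in the mutant and 50.1 in wild type and passed the floor through the mutant array alone. Without it, 19 of 20 were positive and the same 14 and 9 passed each fold, with a median of 0.92. The summed intensity of all 21, in which brighter probe sets weigh more, was 103406 in the mutant and 67131 in wild type. The lowest marker read 73.0 in the mutant and 50.1 in wild type. The lowest intensity of any gene measured was 5.24 in the mutant array and 4.90 in the wild-type array, not necessarily for the same gene. A value above 0 therefore does not show presence. The ratio of Cilp lay inside the range of this list, which ran from -0.10 for Pdgfra, a receptor of stromal cells whose probe sets disagreed in sign, to 1.79 for Kera, the keratocan of tendon and cornea. Kera had 760 in the mutant and 219 in wild type. Of the 21, 2 had a ratio above that of Cilp and 15 had a ratio above that of Cilp2. The counts and medians of this list rest on the brightest probe set of each gene. For Col3a1 it read 0.87 and the other 1.71, and for Col1a2 it read 0.53, with 1.40 the highest of 3. For Col14a1 it read 1.69 and the other 1.27. In pooled cells, fewer cells of a type and less RNA per cell cannot be told apart. The part of fibrous cells in the ratios of Cilp and Cilp2 was not tested.

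**Figure D3:**
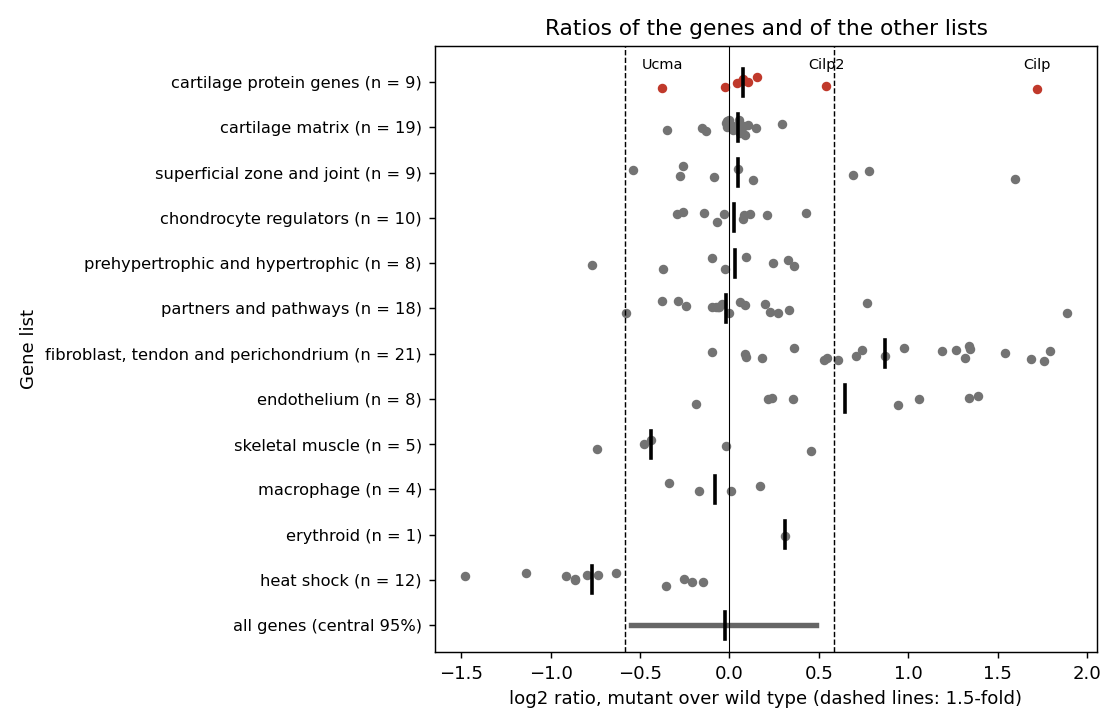
The log2 ratio of mutant over wild type for each gene at or above the floor, as points, with the median of each list as a short vertical bar; the lowest row gives the median and the central 95% of all genes, and dashed lines mark 1.5-fold. Cilp, at 1.72, lies among the fibroblast, tendon and perichondrium genes and beyond all 19 cartilage matrix genes, and the median of the 9 cartilage protein genes, 0.07, is close to that of cartilage matrix, 0.05.

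By a fixed rule, the 3 genes with log2 signals nearest to those of Cilp in both arrays, by Euclidean distance, were Itgbl1, Cd36 and Pamr1. This nearness depends on the brightness of each probe set and does not say that the transcripts were equally abundant. Itgbl1, which encodes a secreted protein with integrin-like repeats, had 457 in the mutant and 133 in wild type, a ratio of 1.78. Cd36, a fatty acid and thrombospondin receptor, had 382 in the mutant and 134 in wild type, a ratio of 1.51. Pamr1, a peptidase domain protein, had 350 in the mutant and 144 in wild type, a ratio of 1.28. All 3 were higher in the mutant array, but at log2 distances of 0.05 to 0.36 from Cilp no other direction was possible.

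Genes on a list of partners and pathways of these proteins showed no common direction. The floor was reached by 18 of them, 8 with a positive ratio and 10 with a negative ratio, with a median of -0.02. Of the 18, 2 were 1.5-fold higher or more, against 1.70% of all genes at or above the floor. Igf1, the growth factor whose action CILP is known to counter in cultured human chondrocyte-like cells, was highest, with 761 in the mutant and 206 in wild type, a ratio of 1.89, and its 4 probe sets lay between 1.31 and 2.05. Cd44, a hyaluronan receptor that lubricin also binds, was lowest, with 1272 in the mutant and 1897 in wild type, a ratio of -0.58 that was the smallest of its 3 probe sets in size. The other gene past 1.5-fold was Ccr2, a chemokine receptor proposed for CYTL1, with 122 in the mutant and 71.8 in wild type, and it is named after its value was seen. The next 2 were chosen for their partner after their values were seen. Tgfb1, the growth factor that CILP binds, had 240 in the mutant and 204 in wild type, a ratio of 0.23. Fn1, the fibronectin that MIA binds, had 17594 in the mutant and 17596 in wild type, and 0.22 with its other probe set.

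Genes of the heat shock response and markers of further cell types were measured beside these values. Each of 12 heat shock genes had a negative ratio, 8 of them past 1.5-fold, with a median of -0.77. They ran from -1.48 for the co-chaperone gene Dnaja4 to -0.15 for Hspa1b. Among all genes at or above the floor, 2.02% were at least 1.5-fold lower. Of 5 skeletal muscle genes at or above the floor, 1 was above 0, from -0.74 for Myod1 to 0.45 for Des. Myod1, with 52.0 in the mutant and 86.8 in wild type, passed the floor through the wild-type array alone, and the 4 others had a median of -0.23. Of 4 macrophage genes, 2 were above 0, from -0.34 for Cd14 to 0.17 for Csf1r. Of the erythroid genes only Alas2 was at or above the floor, at 0.31. Their part in the ratios of the 9 genes was not tested.

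**Figure D4:**
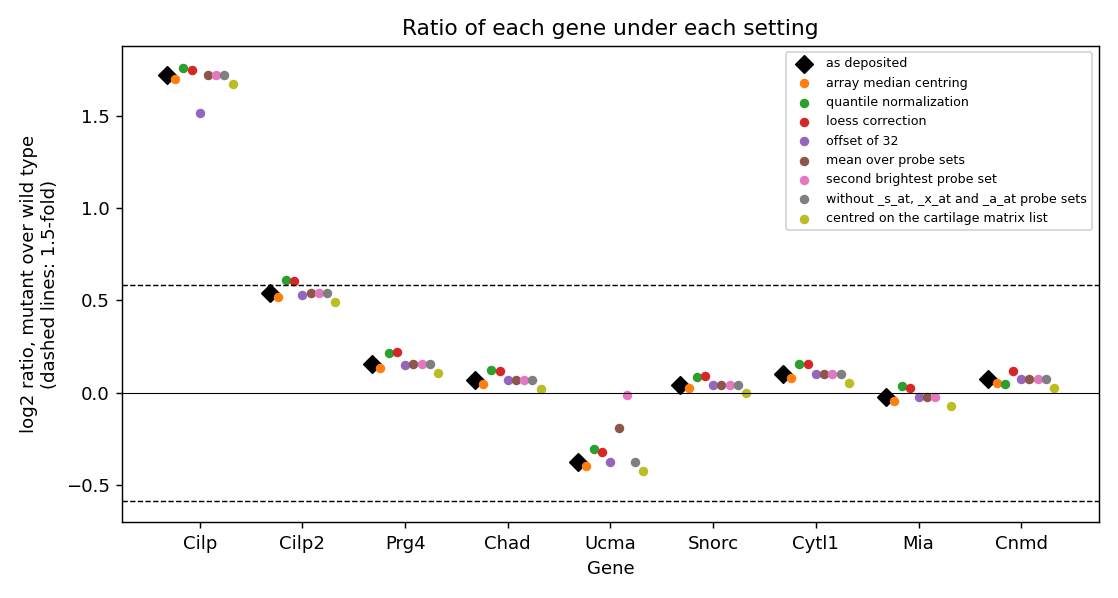
The log2 ratio of mutant over wild type of each of the 9 genes with the values as deposited (diamonds) and under each of 8 other settings (small points), with 1.5-fold as dashed lines. Cilp stays above 1.5 throughout, Cilp2 straddles the 1.5-fold line between 0.49 and 0.61, Ucma ranges from -0.42 to -0.01, and Mia and Snorc fall on both sides of 0.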

How the data were processed

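The deposited table gives an intensity, on a linear scale, for every probe set in each array. Per the submitters' processing notes the tool was MAS5, the Affymetrix signal algorithm. The sources used here give no version, scaling target, background step or detection calls. Whether differences at low signal were compressed or enlarged is therefore not known. Whether ratios were compressed in the brightest decile, which holds all the genes described here but Cilp, was not tested. The number of arrays, 1 per genotype, limits the precision, and no replicate error exists.

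From the deposited intensities, log2 values were taken without further scaling. Names came from GEO's annotation of the platform, with Entrez identifiers looked up in RefSeq's GRCm38.p6 table: 34945 had 1 symbol, 932 several and 9160 none, of these 34741 matched and kept their symbol. A gene was read by the brightest of its probe sets, by mean log2 signal. The floor was the 50th percentile of that mean over all probe sets. Genes were counted past 1.5-fold, and no test was run.

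The genes and the 11 comparison lists (139 of 145 entries measured) were chosen with earlier results of these data known. Named genes were all 9 genes, the highest and lowest of each list at or above the floor, and the 3 genes nearest to any of the 9 past 1.5-fold; any other, such as Creb5, Emcn and Scx, was chosen after its value was seen. The alternatives tried were array median centring, quantile normalization, a loess correction (span 0.3), an offset of 32, the mean over probe sets, the second brightest probe set, leaving out probe sets named _s_at, _x_at or _a_at, other floors and folds, and, chosen after seeing the data, centring on the cartilage matrix list. Python 3.11.15, numpy 2.4.6, pandas 2.3.3 and statsmodels 0.14.6 were used.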

Additional observations from a re-analysis of the deposited data

How the results depend on the processing

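The count of genes differing at least 1.5-fold, 1 with the deposited values, was 2 under quantile normalization and 2 under the loess correction, where Cilp2 joined Cilp at ratios of 0.61 and 0.60. It was 1 under the other 11 alternatives, including thresholds of 2-fold and 3-fold, where the gene counted was Cilp. The share of all genes past 1.5-fold was 3.72% with the deposited values, 3.69% under quantile normalization and 3.70% under the loess correction. Under the other alternatives at 1.5-fold it ran from 2.50% with the offset of 32 to 4.30% with centring on the cartilage matrix list. At thresholds of 2-fold and 3-fold the share was 0.909% and 0.159%. The number of genes with a ratio above 0 ranged from 6 to 8, with Mia joining under quantile normalization and loess and Snorc leaving when ratios were centred on the cartilage matrix genes. The median ratio of the 9 genes ran from 0.03 to 0.12. Of 71 ratios of single genes under alternatives, 24 equalled the deposited ratio, all under the 3 settings that only choose among or average probe sets, since 8 genes have 1 probe set. In all, 70 moved by less than 0.26, the SD of the disagreement between the brightest probe sets of a gene, which is probe error within these arrays and no measure of error between pools. The exception was Ucma, at -0.01 with its second brightest probe set. Mia has no value when probe sets named _a_at are left out. No paired analysis was possible because each genotype has 1 array. With 1 array per genotype, there is no spread between pools against which any of these ratios, that of Cilp included, can be set.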
